A study of Mus musculus with 2 samples.

Results

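The genes described are 4 adult globins (Hbb-bs, Hbb-bt, Hba-a1 and Hba-a2), 4 enzymes of heme synthesis (Alas1, Alas2, Urod and Fech) and Slc4a1, the anion exchanger of the red-cell membrane. They were chosen by name, and their RefSeq transcripts gave 12 entries in the mRNA table. These are 9 of 20709 genes in that table, counting each entry without a symbol as a gene. Primary hepatocytes, the parenchymal cells of the liver, were isolated by enzyme perfusion and density centrifugation from male C57BL/6J wild-type mice that the methods give as 5 weeks old when obtained. The control library came from mice given oil into the peritoneum, and the other library from mice given CCl4, a solvent whose metabolism injures hepatocytes. The CCl4 was a 20% solution in mineral oil at 2.5 ml CCl4 per kilogram, given 2 times a week for 8 weeks per the labels, whereas the methods give 4 weeks. How many mice went into each library is not given in the sources used here. Each condition had 1 library, so none of the differences below has a replicate check, and no test of the conditions was possible.

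Hemoglobin is built from 2 kinds of globin chain, alpha and beta, each holding a heme group. The heme is made in a pathway that starts and ends in the mitochondrion, whose first enzyme, aminolevulinate synthase, sets its rate. That enzyme has a housekeeping form, Alas1, which supplies hepatocytes with heme for cytochrome P450 enzymes, and an erythroid form, Alas2, made in developing red cells. The other enzymes of the pathway are made in both. Reticulocytes and erythroid precursors hold most of the globin mRNA of an adult animal, and hepatocytes are not known as a main source of hemoglobin.

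All 8 members with a value in both libraries were lower in the CCl4 hepatocytes. Alas1 was lowest relative to oil, at 27.7% of its oil level, followed by Alas2 at 31.7% and Hbb-bt at 47.5%. The other 5 genes lay between 63.9% (Urod) and 70.8% (Hbb-bs) for their highest entries. Slc4a1 had 3.17 RPKM in oil and a listed 0 in CCl4, where a listed 0 means less than 1 RPKM. RPKM is the number of reads per kilobase of transcript scaled to the library size, so levels can be compared between genes. Changes are on a log2 scale, CCl4 against oil, after 1 RPKM was added to both values, and a gene was called at a change of at least 1 on this scale. Of the 9 members, 3 were called lower (Alas1, Alas2 and Hbb-bt) and 0 were called higher. Among the 12189 genes at 1 RPKM or more in at least 1 library, 4.29% were called lower and 9.63% were called higher, where a gene listed at 0 in a library had no fold and counted as not called. Scaled to the median gene, the shares were 7.36% lower and 5.57% higher, and the same number of members, 3, was called lower. A change below 0 of any size was met by 32.2% of the 10829 genes with a value in both libraries. The median of those genes was 0.26, and the differences of the 8 members from it ran from -2.07 (Alas1) to -0.75 (Hbb-bs).

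**Figure D1:**
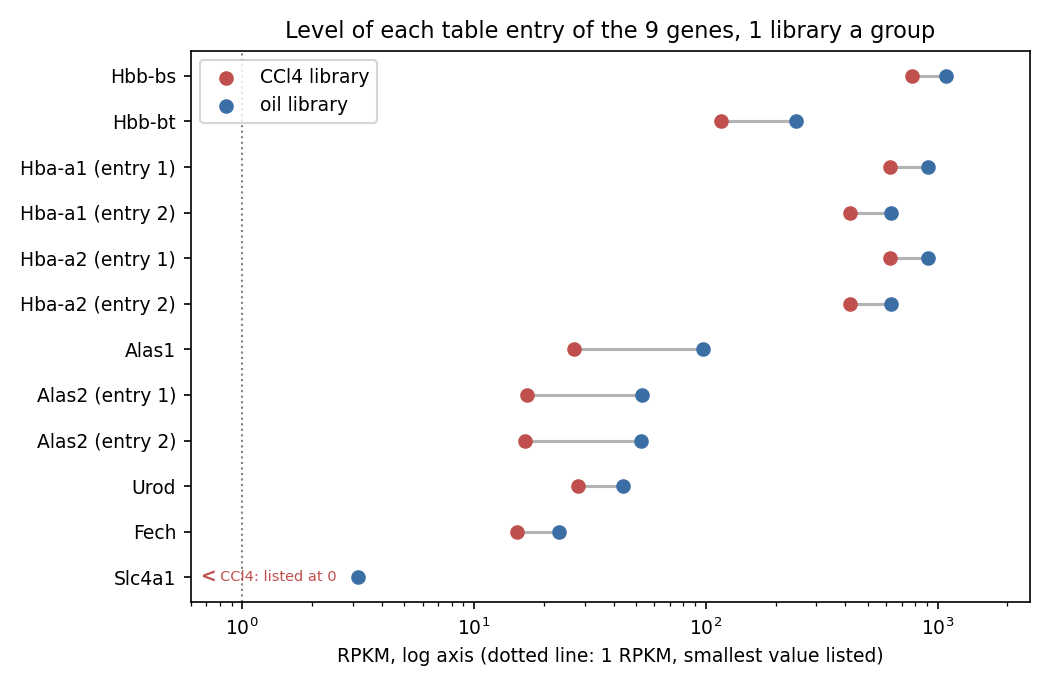
RPKM on a log axis of each of the 12 table entries of the 9 genes, with the oil library in blue and the CCl4 library in red (1 library each, no error bars). In 11 entries the CCl4 point lies to the left of the oil point, and Slc4a1 has no CCl4 point since it was listed at 0.

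The libraries were deep. The steps between RPKM values of short genes gave totals of 57992589 reads for oil and 64655547 for CCl4, and the reads behind each member were at least 1337, Slc4a1 aside. For the members, counting error is therefore small beside the differences described, and the intervals below cover that error and no variation between mice or preparations. In these bulk samples, fewer cells of a type and less RNA per cell cannot be told apart.

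The beta globins differed from each other. Hbb-bs (chromosome 7, 103826523 to 103827928), the beta gene of higher level in these libraries, had 1091 RPKM in oil and 772.7 RPKM in CCl4, a log2 fold change of -0.50. Hbb-bt (chromosome 7, 103812524 to 103813923), the neighboring beta gene of lower level, had 245.6 RPKM in oil and 116.6 RPKM in CCl4, a log2 fold change of -1.07. Without added RPKM, the change of Hbb-bt minus that of Hbb-bs was -0.58, and counting error places this difference between -0.67 and -0.48 (95% interval on the log ratio of reads). The ratio of Hbb-bs to Hbb-bt within a library, which no scaling between the libraries can move, went from 4.44 in oil to 6.63 in CCl4. Hbb-bt was the only globin called lower. Its counting interval, with nothing added, was -1.16 to -0.99, which reaches across the threshold for a call. The beta genes are close copies, and how reads that match more than 1 copy were assigned is not given in the sources used here.

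The table also carries the beta globins under a second pair of RefSeq records, Hbb-b1 and Hbb-b2, which RefSeq places on an alternate sequence of the locus. Hbb-b1 was at 1103 and 781.1 RPKM, next to the values of Hbb-bs. Hbb-b2 was at 245.6 and 116.6 RPKM, identical to Hbb-bt in both libraries. These records were therefore read as second listings of the same loci and were not added to them.

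The alpha globins were listed more than once too. Hba-a1 (chromosome 11, 32283672 to 32284486) and Hba-a2 (chromosome 11, 32296492 to 32297310) encode the alpha chain from duplicated genes, and each had a main entry and a numbered copy. For oil, the main entries gave 906.7 RPKM (Hba-a1) and 905.5 RPKM (Hba-a2), and for CCl4 they gave 623.4 and 622.2 RPKM. The numbered copies gave 630.6 and 629.3 RPKM for oil, and 418.1 and 417.4 RPKM for CCl4. So the 4 entries fall into 2 pairs of nearly equal value, as would be seen if the transcripts of both genes had been placed at both loci, and 1 pair was taken as 1 locus. Which locus the higher pair belongs to cannot be read from the table. The log2 fold change was -0.56 for both genes when their entries were summed, and the single entries lay between -0.59 and -0.54. The higher pair was 1.44 times the lower pair in oil and 1.49 times in CCl4.

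Alpha and beta globin mRNA stayed near the same proportion in both libraries. With 1 entry taken for each locus, the summed alpha level was 1.15 times the summed beta level in oil and 1.17 times in CCl4. The sum of all entries, which can count an alpha locus 2 times, gave 2.30 and 2.34. The 4 globin genes made up 1.05% of the summed mRNA RPKM in oil and 0.824% in CCl4 with all entries, and 0.687% and 0.535% of the same totals with 1 entry a locus. With the total also taken over the highest entry of every other gene, the shares were 0.843% and 0.684%. The sum of the Hba-a1 entries can hold both alpha loci. By oil level, Hba-a1 with its entries summed ranked 28 among all genes and Hbb-bs ranked 49. In the CCl4 library they ranked 21 and 35. Both stood higher in the order of genes in CCl4 although their RPKM was lower, whereas Hbb-bt ranked 251 in oil and 474 in CCl4. All 4 embryonic globins with an entry (Hbb-bh1, Hbb-bh2, Hbb-y and Hba-x), which are made in primitive red cells, were listed at 0 in both libraries.

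Below are the 250 bases before the start site of 5 members, shown to set the beta globins, which differed in size of change, and the erythroid enzyme Alas2 beside the housekeeping form Alas1. Each is 5′ to 3′ on the strand of the gene, from RefSeq on GRCm38.p6. Capitals mark matches on either strand to GATAA, the core letters bound by GATA factors, to CACCC, letters bound by Krüppel-like factors such as the erythroid factor Klf1, and to CCAAT, a common promoter box. No matches overlapped.
Hbb-bs, chr7:103827929-103828178, minus strand: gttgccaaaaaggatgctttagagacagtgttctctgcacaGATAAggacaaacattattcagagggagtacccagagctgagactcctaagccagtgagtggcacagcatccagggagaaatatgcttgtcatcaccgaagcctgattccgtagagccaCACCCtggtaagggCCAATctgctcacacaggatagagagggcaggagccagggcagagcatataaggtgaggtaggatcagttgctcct
Hbb-bt, chr7:103813924-103814173, minus strand: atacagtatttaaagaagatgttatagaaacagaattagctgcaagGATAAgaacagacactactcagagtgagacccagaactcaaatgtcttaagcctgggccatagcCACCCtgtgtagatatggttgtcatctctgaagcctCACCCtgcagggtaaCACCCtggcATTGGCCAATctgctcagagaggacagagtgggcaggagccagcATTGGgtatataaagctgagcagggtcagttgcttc
Hba-a1, chr11:32283422-32283671, plus strand: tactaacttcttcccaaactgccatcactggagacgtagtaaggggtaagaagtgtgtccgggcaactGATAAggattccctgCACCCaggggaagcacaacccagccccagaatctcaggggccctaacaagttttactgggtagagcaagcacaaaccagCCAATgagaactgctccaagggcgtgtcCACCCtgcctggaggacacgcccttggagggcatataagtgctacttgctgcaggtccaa
Alas2, chrX:150547167-150547416, plus strand: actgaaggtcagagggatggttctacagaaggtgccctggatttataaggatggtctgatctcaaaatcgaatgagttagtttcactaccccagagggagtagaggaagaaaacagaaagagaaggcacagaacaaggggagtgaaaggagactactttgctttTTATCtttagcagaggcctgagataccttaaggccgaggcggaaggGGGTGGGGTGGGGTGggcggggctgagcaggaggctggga
Alas1, chr9:106247955-106248204, minus strand: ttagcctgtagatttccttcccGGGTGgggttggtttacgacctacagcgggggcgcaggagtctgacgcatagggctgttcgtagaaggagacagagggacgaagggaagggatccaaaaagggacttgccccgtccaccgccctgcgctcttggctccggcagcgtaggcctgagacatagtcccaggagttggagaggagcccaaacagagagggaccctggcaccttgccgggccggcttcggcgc

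Both beta globins, both alpha globins and Alas2 held 1 match to GATAA each, and 22.6% of 32841 promoter windows of the same length held at least 1. Neither of the 2 annotated Alas1 start sites had one. CACCC was matched 1 time before Hbb-bs and at each Alas1 start site, 2 times before each alpha globin, and 3 times each before Hbb-bt and Alas2, and 52% of all windows hold it. The Urod window held 1 match to CCAAT and no match to the other motifs. CCAAT was matched 1 time before Hbb-bs and 3 times before Hbb-bt, against 33.9% of windows with at least 1 match, and not before Alas2 or Alas1. All 3 motifs together were present in the 4 globin windows and in 3.45% of all windows. The Hbb-bs and Hbb-bt windows were identical at 70.9% of aligned positions, whereas the Hba-a1 and Hba-a2 windows shared a single run of 247 bases. Such matches describe the letters and do not show binding. Windows for Slc4a1 and Fech were not used here.

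Of the enzymes, Alas1 (chromosome 9, 106233455 to 106247954) had 97.5 RPKM in oil and 27.0 RPKM in CCl4. The log2 fold change of -1.82 stood at percentile 0.859 among the genes with a value in both libraries. The ratio of its reads, with nothing added, was -1.85 on the log2 scale, between -1.94 and -1.77 by counting error (95% exact Clopper-Pearson interval). Alas2 (chromosome X, 150547417 to 150570622) had 2 entries, for transcripts that overlap, at 53.2 and 52.4 RPKM in oil and at 16.9 and 16.6 RPKM in CCl4. Since the transcripts overlap, their sum can count shared reads 2 times. The log2 fold change of their sum was -1.63, at percentile 1.18. Both forms of the first enzyme thus lay below the median gene, at differences of -2.07 (Alas1) and -1.88 (Alas2).

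The erythroid form did not stand further from its oil level than the housekeeping form. Alas2 was at 0.546 times Alas1 in oil and 0.626 times in CCl4, taking the higher Alas2 entry. With both Alas2 entries summed, the ratios were 1.08 and 1.24. Alas2 and the globins, which red cells make together, differed in size of change. Hbb-bs was 20.5 times the higher Alas2 entry in oil and 45.8 times in CCl4.

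Urod (chromosome 4, 116989965 to 116994436), which decarboxylates uroporphyrinogen, was at 43.9 RPKM in oil and 28.1 RPKM in CCl4, with a log2 fold change of -0.63. Fech (chromosome 18, 64456542 to 64489098), ferrochelatase, which inserts iron into protoporphyrin, was at 23.4 RPKM in oil and 15.3 RPKM in CCl4, with a log2 fold change of -0.58. Neither was called. Their counting intervals, with nothing added, were -0.73 to -0.57 for Urod and -0.70 to -0.53 for Fech, which overlap each other and lie apart from that of Alas1. Alas1 was 4.17 times Fech in oil and 1.77 times in CCl4, so the first enzyme of the pathway stood closer to the level of the last.

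**Figure D2:**
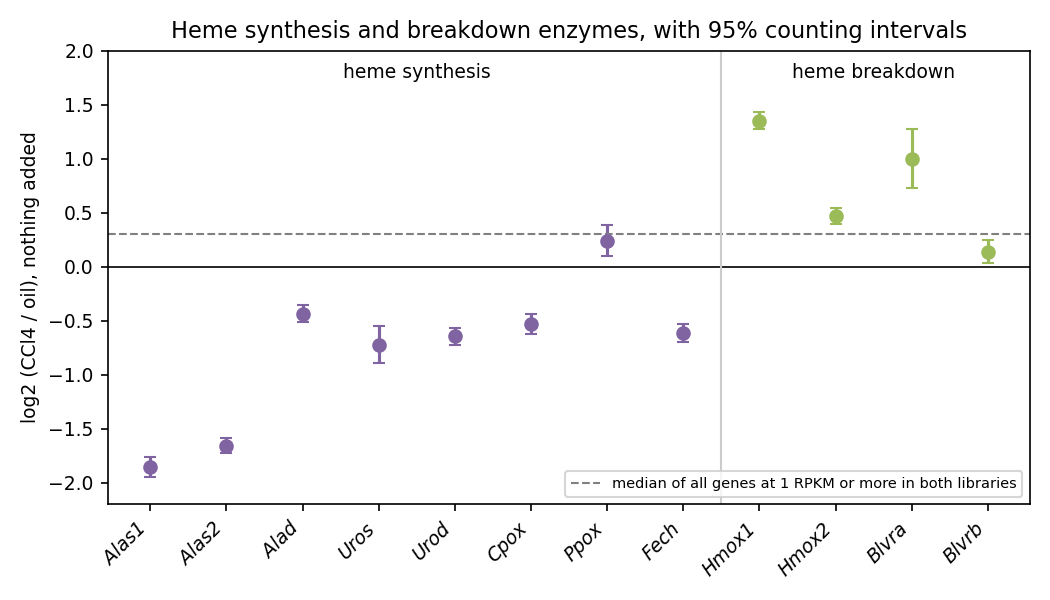
Log2 of the CCl4 over the oil level, with nothing added, for enzymes of heme synthesis in pathway order (purple) and of heme breakdown (green). Bars are 95% exact counting intervals of 1 library a group, and the dashed line is the median gene at 0.30. Alas1 at -1.85 and Alas2 at -1.66 lie below the other synthesis enzymes, and Hmox1 is highest at 1.35.

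Of the other enzymes of heme synthesis, 4 were set side by side with these. Alad, the second enzyme, was at 12.5 and 9.27 RPKM in oil and CCl4 for its higher entry, with a log2 fold change of -0.42. Uros, which closes the ring, was at 6.65 and 4.02 RPKM with a log2 fold change of -0.61. Cpox, a mitochondrial oxidase, was at 16.2 and 11.2 RPKM with a log2 fold change of -0.50. Ppox, the last oxidase before Fech, was at 6.69 and 7.91 RPKM with a log2 fold change of 0.21, which became -0.05 when the libraries were scaled to the median gene. None of the 4 was called, and their median was -0.46 against 0.26 for all genes. Across these 4, Alas1, Urod and Fech, 7 steps of the pathway, 6 were below 0 and Alas1 was the 1 called. The lowest of the other 6 was Urod at -0.63.

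The comparison that the choice of genes set out was between red-cell genes and enzymes that hepatocytes also make. The median log2 fold change of the 5 red-cell members with a value in both libraries (Hbb-bs, Hbb-bt, Hba-a1, Hba-a2 and Alas2) exceeded that of Alas1, Urod and Fech by 0.066. Taking out Alas1 gave 0.044 and taking out Alas2 gave 0.067. The red-cell median fell on an alpha globin, and the 2 alpha globins hold nearly equal sums of the same pairs of entries. Counted as 1 value beside the beta globins and Alas2, they would leave a difference of the opposite sign. Single genes ran from -1.63 to -0.50 for the red-cell members and from -1.82 to -0.58 for the enzymes. Slc4a1 had no value in the CCl4 library and is not part of this difference. Any value under 1 RPKM for Slc4a1 would make it a member called lower, and including it would reverse the sign of the difference.

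**Figure D3:**
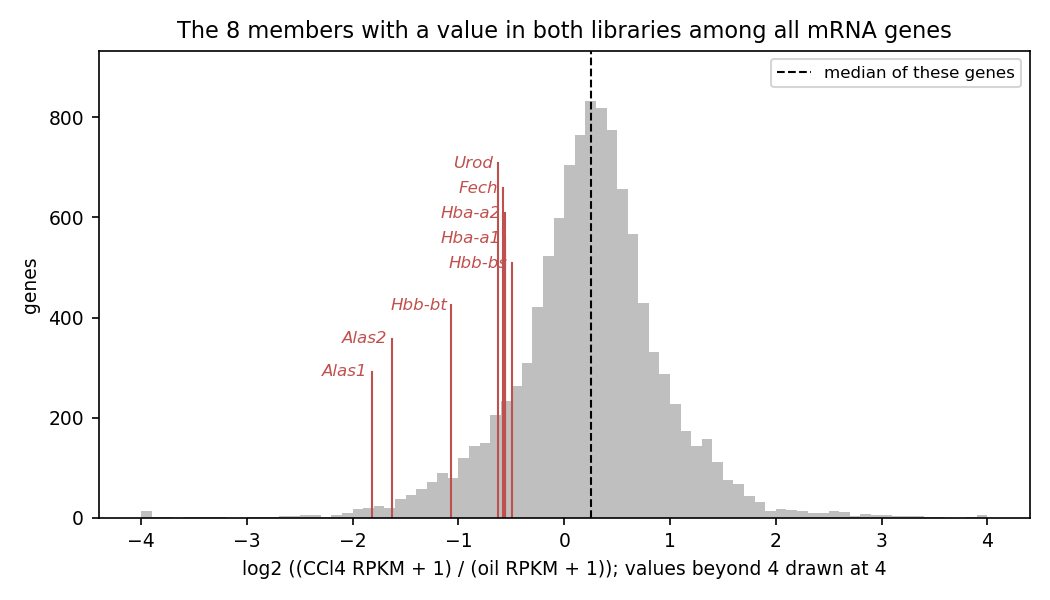
Histogram of the log2 fold change, with 1 RPKM added, of the 10829 genes with a value in both libraries, with the 8 members that have one marked in red. The members run from -1.82 (Alas1) to -0.50 (Hbb-bs), all to the left of the median gene at 0.26.

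Hepatocyte genes were lower as well, and their values stand beside those of the members. All 10 markers of hepatocytes were below 0, with a median of -1.09. Of them, 5 were called lower (4.29% of all genes), or 8 when the libraries were scaled to the median gene (7.36% of all genes). Cyp2e1, a P450 of the hepatocytes around the central vein, was lowest, from 644.7 to 127.8 RPKM (-2.33), and Serpina1a followed at -1.56. Alb was closest to its oil level at -0.42. Of these 10 markers, 9 had a lower fold change than Hbb-bs and than either alpha globin, 5 had a lower one than Hbb-bt, and 1 (Cyp2e1) had a lower one than Alas1. The level of Alas1 against that of Alb went from 0.0113 to 0.00416. The summed level of the list, with the highest entry of each gene, was 20792 RPKM in oil and 12106 RPKM in CCl4. The part of hepatocyte RNA content in the change of Alas1, Urod and Fech was not tested.

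Other red-cell genes were mostly near or under the smallest value listed. Of 30 genes of the red-cell membrane, erythroid factors and late red-cell cytosol, Slc4a1 included, 12 were listed at 0 in both libraries, among them the spectrin Sptb and the factor Gata1. A value in oil with a listed 0 in CCl4 was found in 4 of the 17 with an oil value, Slc4a1, Car1, Klf1 and Trim10. The reverse was found in 1 of the 14 with a CCl4 value, the erythropoietin receptor Epor at 3.53 RPKM. Among all genes at 1 RPKM or more in oil, 1.51% were listed at 0 in CCl4, and among those at 1 RPKM or more in CCl4, 9.93% were listed at 0 in oil. These shares cover genes of every level, and no share was taken for genes as low as these red-cell genes. Car1, the red-cell carbonic anhydrase, was at 2.30 RPKM in oil for its higher entry. Klf1, an activator of beta globin, was at 1.46 RPKM and Trim10, an erythroid protein, at 1.32 RPKM, and both were singled out after their values were seen. At such levels a listed 0 can stand for a value just under 1 RPKM.

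The red-cell genes with values in both libraries lay on both sides of 0. In the cytosol list, Car2, another carbonic anhydrase, was at 7.95 and 4.59 RPKM (-0.68), and Cat, the catalase that hepatocytes also make in quantity, was at 410.3 and 170.0 RPKM (-1.27). Ucp2 in the same list was at 18.3 and 41.4 RPKM (1.13) and Bnip3l at 14.5 and 19.2 RPKM (0.38). In the membrane list, Aqp1, also a gene of endothelium, was at 234.3 and 406.4 RPKM (0.79), Gypc at 3.22 and 7.85 RPKM (1.07) and Epb41, protein 4.1, at -0.22. Tfrc, the transferrin receptor, was at 4.95 and 2.94 RPKM (-0.60), while the factors Nfe2 (0.58) and Tal1 (0.22) were low in both libraries, at no more than 2.73 RPKM. Gypc and Ucp2 were called higher and Cat lower, and scaled to the median gene Gypc (0.82) and Ucp2 (0.84) were under the threshold.

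Heme transport and heme breakdown were described next. In the transport list, 9 of 11 genes with a value in both libraries were below 0, with a median of -0.33. Pgrmc1, a heme-binding protein, was lowest, from 366.7 to 187.4 RPKM (-0.96), followed by Abcb6, a porphyrin transporter, at -0.57. Slc48a1, which moves heme out of lysosomes, went from 14.2 to 30.4 RPKM and was called higher at 1.05, and the heme exporter Flvcr1 went from 2.43 to 5.54 RPKM (0.93). Scaled to the median gene, Slc48a1 was at 0.76 and under the threshold, and Pgrmc1 at -1.27 was past it.

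Hmox1, heme oxygenase 1, which opens the heme ring, went from 40.6 to 103.9 RPKM and was called higher at 1.33. The ratio of Hmox1 to Alas1 within a library went from 0.417 to 3.85. Its constitutive relative Hmox2 was at 33.3 and 46.1 RPKM for the higher entry (0.45). Blvra, a biliverdin reductase, went from 7.07 to 14.2 RPKM (0.91), and Blvrb was at 64.7 and 71.1 RPKM (0.14). The plasma proteins that bind free hemoglobin and heme were called lower, Hp from 2845 to 1018 RPKM (-1.48) and Hpx from 2542 to 920.5 RPKM (-1.46). Their receptors were at 0.12 for Cd163 on macrophages and 0.53 for Lrp1. The counting intervals of Cd163 (0.028 to 0.23) and Blvrb (0.031 to 0.24), with nothing added, reached close to 0. Scaled to the median gene Cd163 became -0.17 and Blvrb -0.16. Apart from that change of Blvrb, the breakdown enzymes were above 0 and the secreted scavengers below it under either scaling.

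Among regulators of Alas1 and proteins that act on the enzyme, 6 of 9 with a value in both libraries were below 0, with a median of -0.56, and none was called. Scaled to the median gene, where 7.36% of all genes were called lower, 3 were past the threshold, Clpx (-1.28), Nr1i3 (-1.24) and Nr1i2 (-1.21), all lower. Foxo1 went from 0.19 to -0.05 when scaled to the median gene. Clpx, the mitochondrial unfoldase that acts on aminolevulinate synthase, went from 62.0 to 31.2 RPKM for its higher entry, with -0.98 for the sum of both. The nuclear receptor Nr1i3 (CAR), which induces Alas1 with drug-metabolizing P450 genes, went from 18.9 to 9.59 RPKM for the highest of its 3 entries, with -0.94 for their sum. Nr1d1, a clock repressor, was at 1.39 and 2.84 RPKM (0.68) and Nrf1 was at 0.39. The coactivator Ppargc1a, which induces Alas1 in fasting, was listed at 0 in both libraries.

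**Figure D4:**
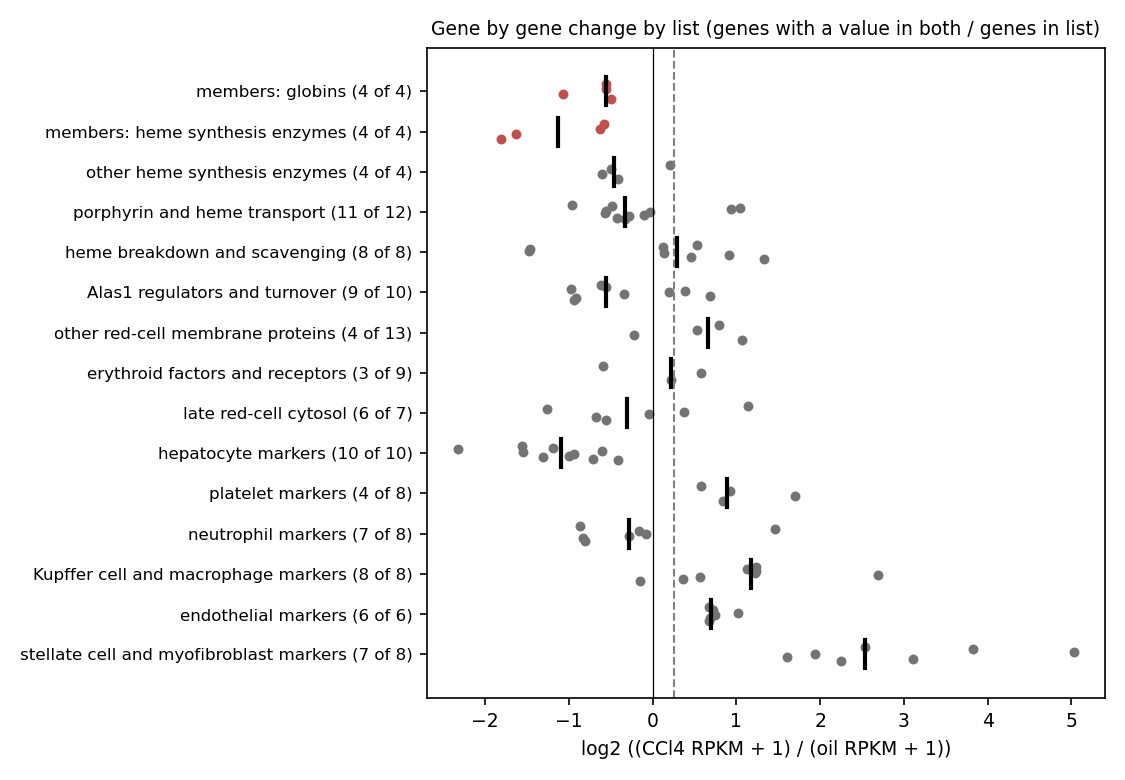
Log2 fold change, with 1 RPKM added, of each gene with a value in both libraries, by gene list, with the number of such genes and of all genes in the list in parentheses. Black bars are list medians, red points are members, and the dashed line is the median gene at 0.26. Both member lists and the hepatocyte markers lie below it, and the stellate cell list lies furthest above, at 2.53.

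Markers of other blood and liver cells were also read in both libraries. Of 8 platelet markers, 4 had values in both libraries and all were above 0 (median 0.88), with Pf4 highest at 1.70 and Itga2b at 0.93. Their summed level went from 10.9 to 30.3 RPKM, and Gp1ba, Gp1bb, Gp5 and Treml1 were listed at 0 in both. Of 8 neutrophil markers, 6 were below 0 and 1 above, Retnlg at 1.46, and the summed level went from 319.0 to 222.5 RPKM. S100a9 (-0.83) and Elane (-0.87) were the lowest, and Mpo was listed at 3.11 RPKM in oil and at 0 in CCl4. The markers of these blood cells thus lay on both sides of 0. Of the Kupffer cell and macrophage markers, 7 of 8 were above 0 (median 1.18, summed level 734.3 and 1395 RPKM), and 5 were called higher, against 9.63% of all genes. Marco was at 2.69, Spic, a factor of macrophages that clear red cells, at 1.23, and Clec4f at -0.15. All 6 endothelial markers were above 0 (median 0.70, summed level 415.6 and 684.6 RPKM), with Lyve1 at 1.02 and Stab2 at 0.75. All 7 stellate cell markers with a value in both libraries were called higher, against 9.63% of all genes (median 2.53, summed level 68.9 and 712.7 RPKM). Col1a1 at 5.03 and Col3a1 at 3.82 led them. Pdgfrb was listed at 0 in oil and at 16.8 RPKM in CCl4 for the higher of its 2 entries. Scaled to the median gene, where 5.57% of all genes were called higher, 1 of these 5 Kupffer cell and macrophage markers, Marco (2.39), was past the threshold. Lyve1 was then at 0.73. In the same scaling, with 7.36% of all genes called lower, 3 neutrophil markers were past it in the lower direction, S100a9 (-1.13), S100a8 (-1.10) and Elane (-1.06). Elane rested on at least 73 reads in oil and 31 in CCl4, so its read ratio lay between -2.05 and -0.77 by counting error. The part of cell composition in the changes of the globins and heme enzymes was not tested, and with 1 library a group, treatment and preparation cannot be told apart.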

How the data were processed

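RNA-seq libraries of hepatocytes from oil-injected and CCl4-injected mice were compared, 1 a group, as the treatment labels give them. Per the labels, the submitters' processing notes name CASAVA 1.4, TopHat2 and mm10; the counting program is not given in the sources used here. The authors deposited RPKM values in 3 comparison tables, and read counts, lengths (recorded as other values) and RPKM for 1443 new lncRNAs, where a 0 in the comparison table always marked a value under 1 RPKM. The deposited log2 changes, p-values and q-values of the authors' own comparison were not used.

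RefSeq identifiers were paired with symbols through the GRCm38.p6 table (27049 of 27457 entries), with 1 marker matched by a synonym (Tf to Trf). Ahsp had no entry. A gene was the sum of its entries. Changes are log2 ratios with 1 RPKM added, called at 1, with no fold where a library was listed at 0. Library totals were those that turned RPKM of genes shorter than 400 bases into whole reads, within 0.03 of a read (206 of 214 genes for oil, 219 of 227 for CCl4). For each entry, lengths from 50 to 30000 bases were searched, and the smallest that made both read numbers whole was used, within 0.001 plus 6e-06 times the read number, since RPKM is rounded. They are lower bounds, equal to the deposited counts for 83.0% of 1397 new lncRNAs and above them for 0. Exact Clopper-Pearson 95% intervals of read ratios reflect counting alone and treat reads as independent. Amplified copies of a molecule are not independent, so the intervals can be too narrow. The functions were tested on simulated data.

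The members and lists were chosen with earlier results of these data known. Of these lists, 3 genes are not reported here and entered no count of a list. The genes named were the members, all genes of the lists of heme synthesis enzymes (as reported here), embryonic globins and heme breakdown, and from each other list the 2 largest changes in each direction among genes with a value in both libraries, plus genes listed at 0 in 1 library and at 2 RPKM or more in the other. Alb, Foxo1, Nr1i2, S100a8, Sptb, Gata1, Klf1, Trim10, Ppargc1a, Hbb-b1, Hbb-b2 and the platelet markers at 0 were named outside this rule. Python 3.11.15, numpy 2.4.6, pandas 2.3.3, scipy 1.17.1 and matplotlib 3.10.9 were used.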

Additional observations from a re-analysis of the deposited data

How the results depend on the processing

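Under the other amounts added, scalings and choice of transcript, all 40 values of the 8 member fold changes stayed below 0, and 3 members remained the number called lower. The count became 7 at a log2 threshold of 0.5 and 0 at a threshold of 2, by construction, and 4 when a listed 0 was taken as 0 RPKM, which adds Slc4a1, as any value under 1 RPKM would, and was chosen after seeing the data. The shares of all genes given above hold at a threshold of 1 with a listed 0 not called. No such share was taken for these other counts, so they are not set against all genes. Scaling to the median mRNA gene raised the count of all genes called lower from 523 to 897, lowered that of genes called higher from 1174 to 679, and moved the log2 fold change of Alas1 to -2.11. The difference between red-cell members and hepatocyte-made enzymes was between 0.0052 and 0.087, with Slc4a1 left out and both alpha globins counted. With 1 RPKM added, it would change sign if Slc4a1 were included at any value under 1 RPKM. The same holds if the alpha globins were counted as 1 value. Neither setting was run, so the direction of this difference is not settled. The globin share of the summed mRNA RPKM was 1.22% in oil and 0.928% in CCl4 without the 10 other most abundant genes, 0.687% and 0.535% with 1 entry a locus, and 0.843% and 0.684% with 1 entry a locus and the highest entry of every other gene in the total. The ratio of Alas2 to Alas1 was 0.546 and 0.626 with the transcript of highest mean RPKM. The alpha to beta globin ratio was 1.36 and 1.40 with that transcript, and 1.15 and 1.17 with 1 entry a locus. The entries counted set these levels, and each remained lower (globin share) or higher (both ratios) in the CCl4 library. Taking 1 entry a locus was chosen after seeing the data. Scaling to the median gene moved the median of heme breakdown and scavenging from 0.30 to -0.0032. No paired analysis was possible because each group has 1 library. Genes near 1 RPKM are limited by the listing, since values below 1 RPKM were listed at 0. Genes with few reads have wide counting intervals.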
